A study of Mus musculus with 96 samples.

Results

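The phagocyte NADPH oxidase was followed through 6 genes: the subunits Ncf1, Ncf4, Cyba and Cybb and the regulators Rac2 and Prkcd. The genes were listed by name as parts of the oxidase, with earlier results of these data known. Every probe annotated to them was taken, which gave 7 of the 25697 probes on the array and 6 of its 16593 genes. Ncf1 had 2 probes and each other gene 1. Levels are log2 intensities, read against the median probe of the arrays of a tissue, and differences are log2 differences ± standard error (SE) from limma.

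The oxidase is an enzyme of neutrophils, macrophages and B cells that moves electrons from NADPH to oxygen and so makes superoxide. Its membrane core is a heterodimer of Cybb, which carries the electrons, and Cyba, which stabilises Cybb. On activation cytosolic subunits, among them Ncf1 (p47phox) and Ncf4 (p40phox), move to the membrane together with the GTPase Rac2, which is found mainly in blood cells. Ncf1 is the organiser of this assembly and moves once kinases, among them the protein kinase C delta encoded by Prkcd, have phosphorylated it. Ncf1m1J is a point mutation that disturbs splicing of the Ncf1 transcript and leaves mice without a working phagocyte burst, and such mice are known for severe collagen induced arthritis.

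Whole spleen and whole blood of 48 male mice were measured on 96 Illumina bead arrays. The mutated strain was C57BL/10.Q/rhd.Ncf1m1J and its wild type C57BL/10.Q/rhd, and every mouse had been immunised for collagen induced arthritis. Mice of each genotype were taken on day 44 or on day 15 after immunisation, different mice on each day, 12 mice per genotype and day. Each such group held 6 mice of experiment II and 6 of experiment I. RNA was isolated with Qiagen RNeasy kits from tissue in RNALater and blood in RNAprotect tubes in experiment II, and with Ambion RiboPure kits followed, for blood, by lithium chloride precipitation in experiment I. Globin transcripts were depleted from all samples. The mutation is carried by every cell of the animal, no unimmunised mice were among the arrays, and the sources used here do not state the age of the mice.

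The spleens of experiment I fell into 2 sets that followed the mouse numbers in the sample names. Mice numbered 9 to 19 (n = 9, all of day 15, 4 of them mutated) stood apart from mice numbered 21 to 23 (n = 3, also day 15, 2 of them mutated) and 33 to 45 (n = 12, all of day 44). The labels do not call this a batch, and its cause was not tested. Because all day 44 mice of experiment I had high numbers, spleen results are given below also with a term for mice 9 to 19 and without them, both chosen after seeing the data. Blood of the same mice showed no such split. In experiment I, 5 spleen arrays (1 mutated, 4 wild type) and 9 blood arrays (3 mutated, 6 wild type) carried transcripts of the exocrine pancreas, an organ that lies beside the spleen, with a marker mean more than 1 log2 unit above the median array. In experiment II no array passed that limit, and the highest spleen reached 7.21, against a median of 6.30.

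Probes for olfactory and vomeronasal receptors, genes that blood and spleen hardly use, served as a measure of background. Their 1305 probes had a 95th percentile of 6.33 in spleen and 6.30 in blood, against array medians of 6.36 and 6.20. In spleen Cyba came first at 12.46 ± 0.49 (SD, n = 48 arrays, higher than 99.2% of all probes), then Ncf4 at 11.58 ± 0.32 (97.9%), Rac2 at 10.81 ± 0.70 (95.8%), Prkcd at 10.49 ± 0.43 (94.5%) and Ncf1 at 6.85 ± 0.50 (63.0%). In blood the order was the same, with Cyba at 11.58 ± 0.60 (98.8%), Ncf4 at 11 ± 0.45 (97.9%), Rac2 at 10.51 ± 0.86 (96.9%), Prkcd at 9.82 ± 0.54 (95%) and Ncf1 at 6.56 ± 0.53 (65.1%). Probes differ in how well they bind, so the order is one of probe signals and not of transcript numbers.

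Ncf1 was dim compared with the other readable members, and 2 of the 7 probes could not be read at all. The Cybb probe ILMN_2716935 ranged over the arrays from 5.72 to 6.20 in spleen and from 5.75 to 6.21 in blood. The second Ncf1 probe, ILMN_1228585, ranged from 5.67 to 6.18 in spleen and from 5.69 to 6.25 in blood. Neither exceeded the 95th percentile of the receptor probes on any array (0 of 48 in each tissue). Since a probe may also bind poorly, these values set no limit on Cybb or on the part of Ncf1 that ILMN_1228585 reads. Where on the transcript each Ncf1 probe binds was not analysed here. Cybb is an abundant transcript of myeloid cells, and the monocyte and mature neutrophil markers that go with it were well above background in both tissues, so values of the Cybb probe are not read as values of the gene.

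**Figure D1:**
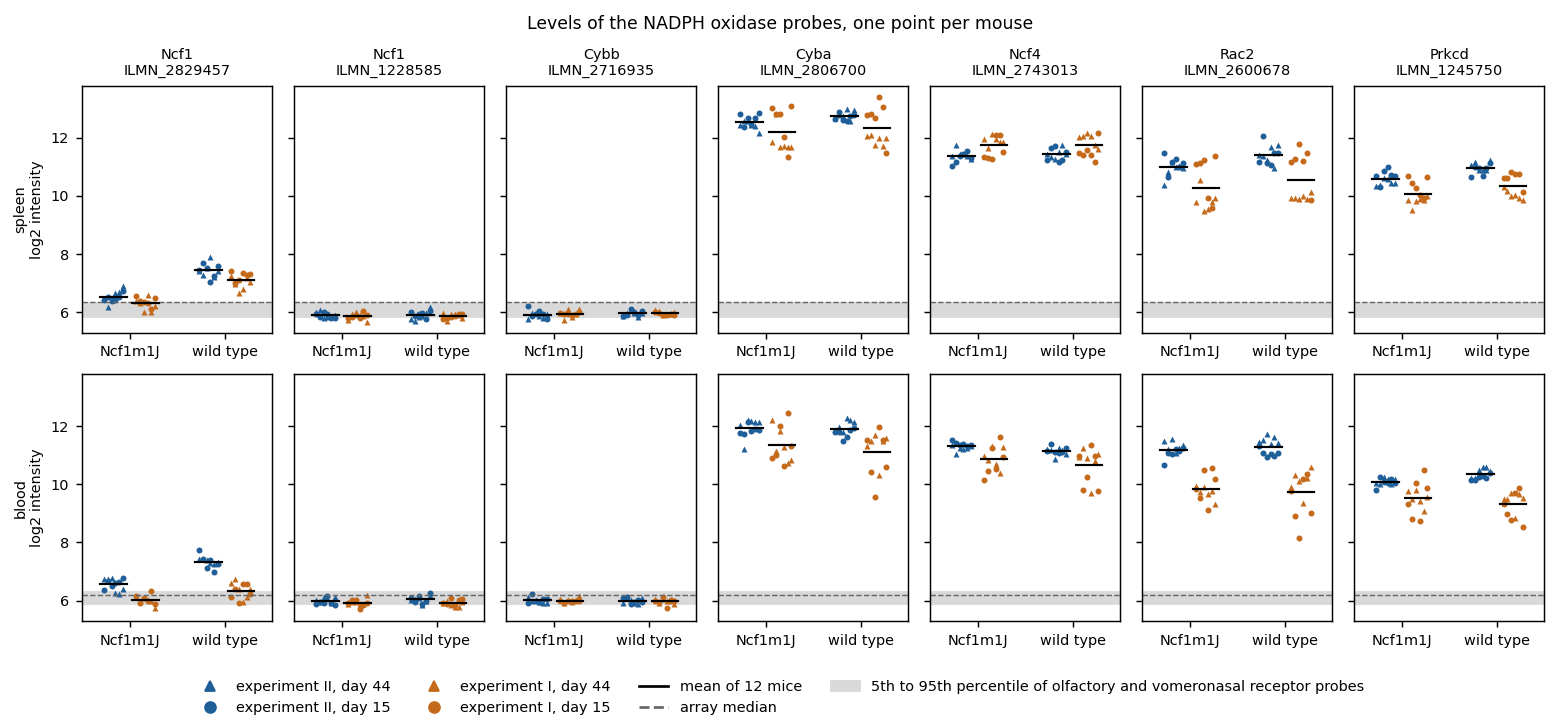
Each panel plots the log2 intensity of 1 member probe, spleen above and blood below, with 1 point per mouse, experiment II left of experiment I within each genotype, and a line at the mean of 12 mice. The Cybb probe and the second Ncf1 probe lie inside or below the grey band of receptor probes on every array, and the first Ncf1 probe lies partly inside it in mutated mice, most of all in blood of experiment I.

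Promoter windows show how differently the members' start sites are built, and they are printed for the 3 members whose levels the results below turn on and for which a window was at hand. RefSeq windows of 300 bases (250 before and 50 after the start, build GRCm38.p6, minus strand) were matched for 4 of the 6 members, not for Ncf4 and Rac2. Capitals mark the GC box GGGCGG or its complement CCGCCC, the letters to which Sp family factors are known to bind, a motif chosen after the windows were read.

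Ncf1, chr5:134229576-134229875: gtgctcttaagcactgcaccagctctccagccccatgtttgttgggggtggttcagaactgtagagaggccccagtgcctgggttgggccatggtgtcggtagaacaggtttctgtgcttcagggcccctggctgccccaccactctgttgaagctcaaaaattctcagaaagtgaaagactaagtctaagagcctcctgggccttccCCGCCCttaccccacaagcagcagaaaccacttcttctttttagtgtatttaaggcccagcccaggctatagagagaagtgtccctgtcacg

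Cyba, chr8:122432891-122433190: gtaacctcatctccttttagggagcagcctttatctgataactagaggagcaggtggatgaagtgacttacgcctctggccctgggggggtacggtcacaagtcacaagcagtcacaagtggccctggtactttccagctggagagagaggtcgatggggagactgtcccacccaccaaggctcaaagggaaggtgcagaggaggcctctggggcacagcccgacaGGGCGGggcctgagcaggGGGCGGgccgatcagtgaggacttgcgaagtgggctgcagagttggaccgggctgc

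Prkcd, chr14:30626159-30626458: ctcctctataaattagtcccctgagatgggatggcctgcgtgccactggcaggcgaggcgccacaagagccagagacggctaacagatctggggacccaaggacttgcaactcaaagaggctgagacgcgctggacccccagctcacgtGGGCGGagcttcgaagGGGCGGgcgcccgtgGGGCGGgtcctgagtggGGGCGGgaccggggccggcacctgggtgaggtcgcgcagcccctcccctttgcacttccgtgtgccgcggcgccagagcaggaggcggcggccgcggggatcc

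The Prkcd window held 4 GC boxes, at -101, -85, -70 and -53 relative to the start, was 69.3% G and C. The Cyba window held 2, at -24 and -6, with 60.7% G and C. The Ncf1 window held 1 on the opposite strand, at -42, with 54% G and C, and the Cybb window, at 35.3% G and C, held none. Among 32851 such windows 35.7% held the GC box at least once on either strand and 10.7% held it 3 times or more. The core GAGGAA, a form of the site of the myeloid factor PU.1 (Spi1), occurred in 28.3% of windows and, of the 4 members, in Cybb alone. A second Prkcd window, at chr14:30610261-30610560, held neither motif. A match is a description of these letters and not a measured binding site.

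The mutated gene was measured first. In spleen of experiment II Ncf1 was 6.18 at the lowest, 6.50 at the median and 6.88 at the highest in 12 mutated mice, against 7.04, 7.43 and 7.91 in 12 wild type mice. In spleen of experiment I it was 6.01, 6.32 and 6.57 in mutated mice, against 6.66, 7.15 and 7.41 in wild type mice. The genotypes thus did not overlap in spleen in either experiment. The share of all probes without overlap was not counted, in spleen or in blood. In blood of experiment II the lowest, median and highest were 6.22, 6.62 and 6.79 in mutated mice, against 7.0, 7.36 and 7.73 in wild type mice, again without overlap. In blood of experiment I they were 5.74, 6.01 and 6.34 in mutated mice, against 5.91, 6.39 and 6.73 in wild type mice, and only 2 of 12 mutated mice had less Ncf1 than any wild type mouse.

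How far Ncf1 stood above background depended on the experiment. In blood 10 of 12 mutated and 12 of 12 wild type arrays exceeded the 95th percentile of the receptor probes in experiment II, against 1 of 12 mutated and 7 of 12 wild type arrays in experiment I. In spleen all wild type arrays did so, and of the mutated arrays 11 of 12 in experiment II, against 6 of 12 in experiment I. Differences of Ncf1 in experiment I, blood above all, thus include arrays on which the probe was not above background. Within experiment II, where both genotypes were mostly readable, the difference was -0.91 ± 0.08 in spleen (adjusted p = 1.88e-06) and -0.78 ± 0.08 in blood (adjusted p = 1.22e-06, both limma). In experiment I blood it was -0.31 ± 0.09 (adjusted p = 0.493).

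Among the other members Prkcd was the 1 that changed with genotype in spleen, and it was lower in mutated mice. Limma called 8.88% of all probes in spleen over both days and 2 of the 7 member probes, Ncf1 and Prkcd. Among probes above the median, where both lie, 19.9% were called. In spleen of experiment II Prkcd was 10.29 at the lowest, 10.59 at the median and 10.99 at the highest in mutated mice, against 10.66, 10.95 and 11.24 in wild type mice, and 11 of 12 mutated mice lay below the wild type median. In spleen of experiment I it was 9.51, 9.97 and 10.67 in mutated mice, against 9.87, 10.23 and 10.82 in wild type mice. There 8 of 12 mutated mice lay below the wild type median. Such counts were not made over all probes. The difference was -0.38 ± 0.07 in experiment II (adjusted p = 0.00217) and -0.25 ± 0.09 in experiment I (adjusted p = 0.175), and the test of the difference between the experiments gave -0.13 ± 0.14 (adjusted p = 1).

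The groups of Prkcd were most apart on day 44 of experiment II. There 6 mutated spleens ran from 10.32 to 10.61 with a median of 10.44. The 6 wild type spleens ran from 10.88 to 11.24 with a median of 10.99, without overlap. This subgroup was picked as the widest apart, and the share of all probes without overlap there was not counted. Limma in experiment II alone called 4.58% of all spleen probes at day 44. On day 15 of the same experiment 6 mutated spleens ran from 10.29 to 10.99 and 6 wild type spleens from 10.66 to 11.13, which overlap. Over both experiments the difference was -0.40 ± 0.10 at day 44 (adjusted p = 0.0107, with 4.26% of probes called and 2 members, and adjusted p = 0.0543 with the mouse as a replicate block over both tissues) and -0.23 ± 0.10 at day 15 (adjusted p = 0.323, with 1.94% of probes called and Ncf1 as the 1 member). The genotype by day test gave -0.17 ± 0.14 (adjusted p = 1), so the days were not shown to differ. No probe passed that test in spleen (0% by limma, 596 at an unadjusted p under 0.05) and no member in blood (0.0117% of probes).

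Rac2 and Cyba had lower means in mutated spleens in both experiments, with differences that did not pass over all mice. Rac2 was 10.36, 11.02 and 11.49 (lowest, median and highest) in mutated spleens of experiment II, against 10.96, 11.38 and 12.06 in wild type spleens. Its difference was -0.39 ± 0.12 in experiment II (adjusted p = 0.0468), -0.26 ± 0.21 in experiment I (adjusted p = 0.721) and -0.33 ± 0.14 over both (adjusted p = 0.157). Cyba was 12.16, 12.53 and 12.84 in mutated spleens of experiment II, against 12.57, 12.74 and 12.99 in wild type spleens. Its difference was -0.21 ± 0.06 in experiment II (adjusted p = 0.0472) and -0.10 ± 0.21 in experiment I (adjusted p = 0.924). Experiment II alone thus called 4 of the 7 member probes, against 6.18% of all probes.

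Part of the wide spread in experiment I spleens lay between the sets of mouse numbers. With a term for mice 9 to 19, limma called 12.3% of all spleen probes and 3 member probes: Ncf1 at -0.85 ± 0.06, Prkcd at -0.29 ± 0.05 (adjusted p = 2.48e-05) and Rac2 at -0.27 ± 0.08 (adjusted p = 0.0156). Without those mice the difference of Rac2 was -0.29 ± 0.10 (adjusted p = 0.0565) and that of Prkcd -0.28 ± 0.07 (adjusted p = 0.00109). Ncf4 showed no difference of any size that was called in these fits, at -0.03 ± 0.07 over both experiments, an estimate whose interval of 2 SE runs from -0.17 to 0.11.

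Markers of several cell types moved with genotype in the same spleens. In mutated spleens 8 of 10 B cell markers and 12 of 13 T cell markers fell, with medians of -0.43 and -0.57, while 10 of 10 neutrophil precursor and 8 of 11 mature neutrophil markers rose, with medians of 1.74 and 0.92. Erythroid markers rose in 7 of 10 cases (median 0.81) and platelet markers in 6 of 7 (median 0.55). The mean over the B cell list ran from 8.72 to 10.34 in mutated and from 9.20 to 10.48 in wild type spleens, and that over the mature neutrophil list from 8.57 to 9.71 in mutated and from 8.23 to 9.22 in wild type spleens. In these lists 9 of 10 B cell and 9 of 11 mature neutrophil genes lay above the receptor background. With the means of these lists as terms, the difference of Prkcd was 0.07 (adjusted p = 0.778), those of Rac2 and Cyba were 0.11 and 0.17, and Ncf1 kept its call. Limma called 4 of 25697 probes (0.0156%) with these terms, so the loss of the call was shared by nearly all called probes. In whole tissue, fewer cells of a type and less RNA per cell cannot be told apart.

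In blood the mutated gene was the 1 member called over both days, against 0.922% of all probes and 2.52% of probes above the median. Ncf1 was also the 1 member at day 44, at -0.61 ± 0.10 (adjusted p = 2.16e-04, 1.24% of probes called), and at day 15, at -0.48 ± 0.10 (adjusted p = 0.013, 0.163% of probes called). Without the arrays with pancreatic transcripts the day 15 difference of Ncf1 was -0.55 ± 0.11 (adjusted p = 0.0551). Over both days Ncf4 differed by 0.19 ± 0.11 (adjusted p = 0.714), Cyba by 0.14 ± 0.14 (adjusted p = 0.921), Rac2 by -0.004 ± 0.12 and Prkcd by -0.02 ± 0.10. Intervals of 2 SE ran from -0.03 to 0.41 for Ncf4 and from -0.23 to 0.19 for Prkcd.

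In blood Prkcd was lower in mutated mice in experiment II, while no direction was shown in experiment I. In experiment II Prkcd was 9.80 at the lowest, 10.07 at the median and 10.25 at the highest in mutated blood, against 10.13, 10.27 and 10.60 in wild type blood, and 12 of 12 mutated mice lay below the wild type median. In experiment I it was 8.75, 9.53 and 10.50 in mutated blood, against 8.53, 9.5 and 9.88 in wild type blood. There 6 of 12 mutated mice lay below the wild type median. Such counts were not made over all probes. The difference was -0.25 ± 0.05 in experiment II (adjusted p = 0.00652, with 3.35% of probes called) and 0.21 ± 0.19 in experiment I (adjusted p = 1). The test of the difference between the experiments gave -0.46 ± 0.20 (p = 0.0255, adjusted p = 1 over all probes), and it called 0.00389% of all blood probes and no member.

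**Figure D2:**
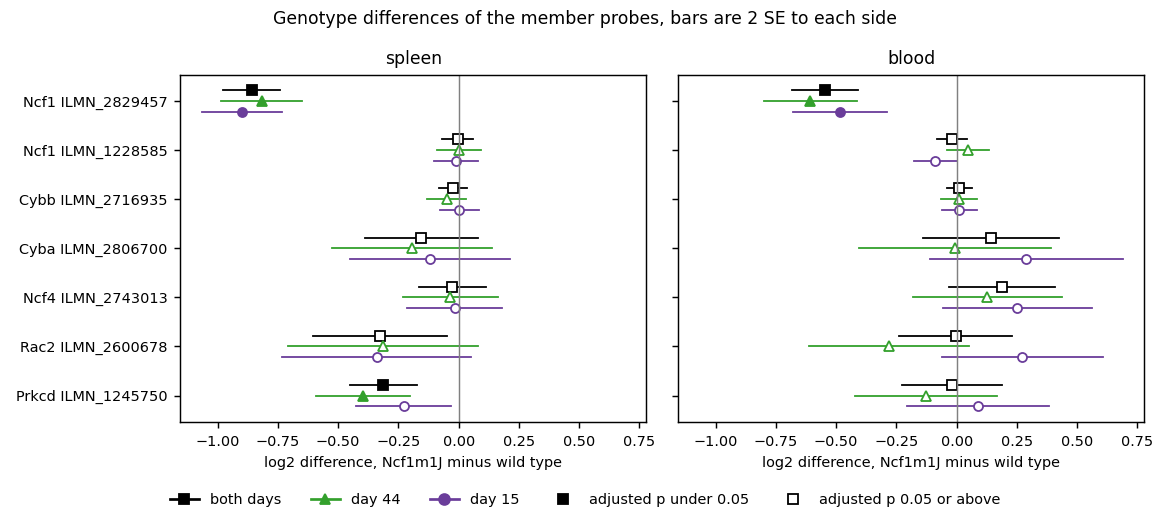
Points give the log2 difference of mutated minus wild type mice for each member probe in spleen and blood, over both days, at day 44 and at day 15, with bars of 2 SE to each side and filled points for an adjusted p under 0.05. Ncf1 is well left of 0 in both tissues and Prkcd in spleen, while the other intervals reach or lie near 0.

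Over all mice, 4 members differed between day 44 and day 15 in spleen, where limma called 19.1% of all probes. Among probes above the median, where these 4 members lie, 41.4% were called. Ncf4 rose by 0.23 ± 0.07 (adjusted p = 0.0176, and 0.0747 with the mouse as a replicate block), and Rac2 fell by 0.57 ± 0.14 (adjusted p = 0.0038), Cyba by 0.38 ± 0.12 (adjusted p = 0.0191) and Prkcd by 0.30 ± 0.07 (adjusted p = 0.00285). In experiment I these 4 members differed more between the sets of mouse numbers than between the days within mice 21 to 45. The sets were drawn from these same values, and mice 21 to 45 held 3 mice of day 15. In mice 9 to 19, all of day 15, day and set cannot be told apart. Rac2 was 9.90 ± 0.27 in spleens of day 44 (mice 33 to 45, range 9.47 to 10.53), 9.80 ± 0.17 in day 15 mice 21 to 23 (9.60 to 9.93) and 11.31 ± 0.22 in day 15 mice 9 to 19 (11.10 to 11.79). In experiment II it was 11.14 ± 0.38 on day 44 and 11.26 ± 0.35 on day 15, 12 mice each. The 3 day 15 mice with high numbers thus had the Rac2 level of day 44 mice. Without the spleens with pancreatic transcripts Prkcd was the 1 member left, and Rac2 was at -0.44 ± 0.14 (adjusted p = 0.0564), Cyba at -0.30 ± 0.13 (adjusted p = 0.139) and Ncf4 at 0.18 ± 0.07 (adjusted p = 0.143).

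Cyba and Prkcd showed the same split in their means, and Ncf4 showed it in the opposite direction. The sets overlapped slightly for Cyba, whose lowest value in mice 9 to 19 was 12.69 and highest in mice 21 to 45 was 12.83. For Prkcd these values were 10.28 and 10.30, and the sets did not overlap for Ncf4. Cyba was 11.93 ± 0.32 in day 44 mice of experiment I, 11.61 ± 0.36 in day 15 mice 21 to 23 and 12.94 ± 0.22 in day 15 mice 9 to 19. Prkcd was 9.93 ± 0.19, 10.03 ± 0.09 and 10.62 ± 0.17 in these sets, in the same order. Ncf4 was at 11.93 ± 0.18, 12.11 ± 0.04 and 11.39 ± 0.13. In experiment II the means on day 44 and day 15 were 12.61 and 12.68 for Cyba, 10.75 and 10.80 for Prkcd, and 11.45 and 11.36 for Ncf4. Ncf1 had means of 6.61, 6.58 and 6.88 in the 3 sets of experiment I with SDs of 0.44, 0.64 and 0.44, and these sets overlapped.

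With a term for mice 9 to 19 no spleen probe passed for day (0 of 25697 by limma, 1523 at an unadjusted p under 0.05), and without these mice none passed either (1375 at an unadjusted p under 0.05). The member differences with the term were 0.01 ± 0.06 for Ncf4, 0.04 ± 0.09 for Cyba, -0.06 ± 0.10 for Rac2 and -0.08 ± 0.06 for Prkcd. The day difference itself differed between the experiments, experiment II minus experiment I, by 0.92 ± 0.24 for Rac2 (adjusted p = 0.0112) and 0.49 ± 0.12 for Prkcd (adjusted p = 0.00652), and by 0.62 ± 0.22 for Cyba (adjusted p = 0.0549) and -0.27 ± 0.14 for Ncf4 (adjusted p = 0.212), with 12.2% of all probes called. B cell markers moved with the sets: their mean ran from 9.57 to 10.41 in spleens of mice 9 to 19, from 8.72 to 9.45 in those of mice 21 to 45 and from 9.24 to 10.48 in experiment II. Their part in the member values was not tested.

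**Figure D3:**
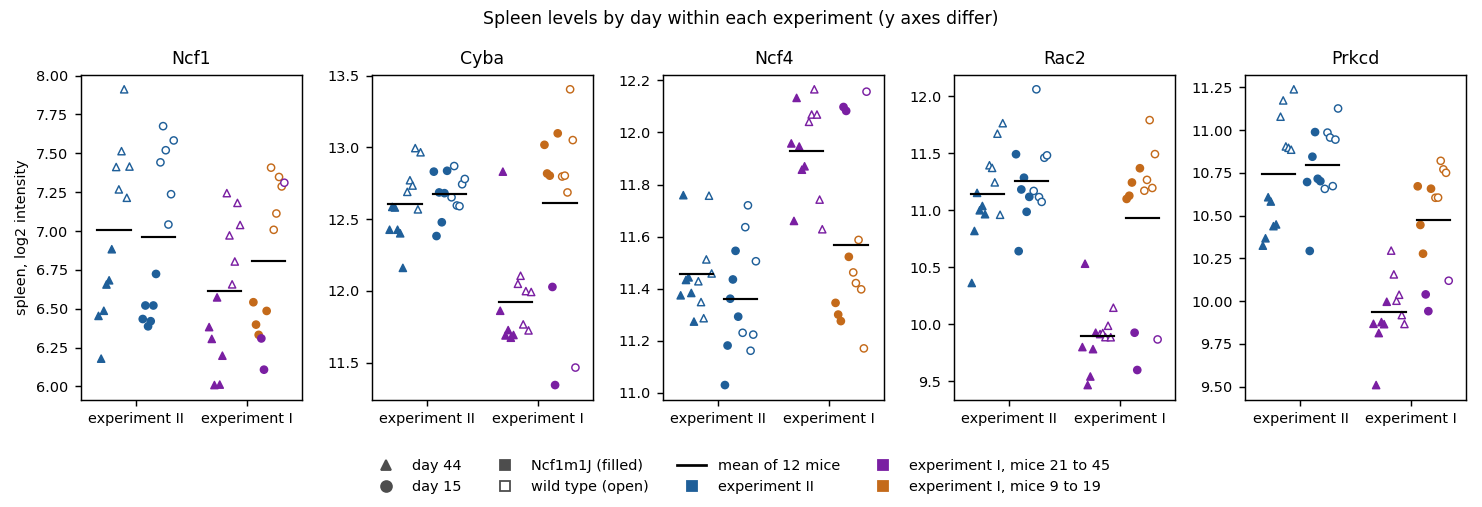
The log2 intensity of 5 member probes in spleen is plotted per mouse, day 44 left of day 15 within each experiment, with filled points for mutated and open points for wild type mice and a line at the mean of 12 mice. In experiment I the 3 day 15 mice numbered 21 to 23 lie within the range of the day 44 mice for Rac2, Prkcd and Ncf4. For Cyba they run from 11.34 to 12.03, against 11.67 to 12.83 on day 44. In experiment II the days overlap in every panel.

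Blood showed no member that passed for day, where 0.0856% of all probes did. Rac2 came nearest, at 0.29 ± 0.12 (adjusted p = 0.443). In experiment II its mean was 11.42 ± 0.19 on day 44 and 11.07 ± 0.17 on day 15 (12 mice each), a difference of 0.35 (adjusted p = 0.00266 in that experiment, with 3.80% of probes called). In experiment I it was 9.90 ± 0.38 on day 44 and 9.67 ± 0.74 on day 15, a difference of 0.23 (adjusted p = 0.792). The test of the difference between the experiments gave 0.12 ± 0.24 (adjusted p = 0.903) and called 0.16% of probes and no member.

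The experiments themselves differed more than genotypes or days for most members. In blood 63.7% of all probes and 6 of the 7 member probes were called, all higher in experiment II: Rac2 by 1.46 ± 0.12, Prkcd by 0.78 ± 0.10, Ncf1 by 0.77 ± 0.07, Cyba by 0.67 ± 0.14, Ncf4 by 0.48 ± 0.11 and the background-level second Ncf1 probe by 0.09. In spleen 54.1% of probes and 5 members were called, with Rac2 higher in experiment II by 0.79 ± 0.14, Prkcd by 0.57 ± 0.07, Cyba by 0.38 ± 0.12 and Ncf1 by 0.27 ± 0.06, and Ncf4 lower by 0.34 ± 0.07. The spread was also unlike: the SD of Rac2 over 12 wild type blood arrays was 0.27 in experiment II and 0.73 in experiment I, and that of Prkcd 0.17 and 0.44. The experiments differ in kit, collection and mice, which cannot be told apart.

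Spleen was set against blood of the same mouse after each array had been centred on its median, since the tissues were normalised separately, and 88.1% of all probes were called. Cyba was 0.71 ± 0.09 higher in spleen (43 of 48 mice), Prkcd 0.50 ± 0.06 (43 of 48), Ncf4 0.42 ± 0.07 (35 of 48) and Ncf1 0.12 ± 0.05 (29 of 48, adjusted p = 0.0133), while Rac2 did not pass at 0.13 ± 0.09 (21 of 48, adjusted p = 0.177). The 2 probes at background gave -0.21 and -0.25 on this scale, so differences of that size were seen also where a probe had no readable signal. By percentile rank within the array the difference of Prkcd turned to -0.113 percentile points. On the log2 scale Cyba and Prkcd were higher in spleen in both experiments, at 0.56 and 0.40 in experiment II and 0.86 and 0.61 in experiment I. Ncf4 was 0.01 ± 0.04 in experiment II and 0.83 ± 0.13 in experiment I. Ncf1 and Rac2 turned direction, at -0.13 and -0.21 in experiment II and 0.37 and 0.47 in experiment I.

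The genotype difference of Ncf1 was larger in spleen than in blood by 0.31 on the log2 scale (-0.31 ± 0.09, adjusted p = 0.0386, 3.37% of probes called, 1 member). It was -0.12 ± 0.12 in experiment II (adjusted p = 0.754), where both tissues were readable, and -0.50 ± 0.11 in experiment I (adjusted p = 0.0675), where 11 of 12 mutated and 5 of 12 wild type blood arrays were not above the receptor background. Without the mice with pancreatic transcripts it was -0.23 ± 0.11 (adjusted p = 0.34), and the tissue difference of Ncf1 over both genotypes was 0.09 ± 0.06 (adjusted p = 0.135). The other 4 readable members gave values from -0.32 to -0.22 that did not pass.

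How far the members vary together was read within experiment II and within the 2 sets of experiment I, after genotype and day had been removed, since the spleens of experiment I form separate clusters. Cybb was left out because its probe was not readable. This gave 60 relations, and adjusted values are over all of them. Of the 3 day 15 mice among mice 21 to 45, 2 were mutated. Removing the groups thus left the wild type mouse no residual and the 2 mutated mice mirrored residuals. For that set r is given without a p-value, but its p-values are among the 60 that were adjusted together. Adjusted values of the other sets depend on them and can be too small. In mice 9 to 19 the residuals are also fewer free values than mice, so permutation p-values there can be too small. In spleen of experiment II (n = 24) Rac2 went with Prkcd at r = 0.62 (rho = 0.60, permutation p = 0.00113, adjusted p = 0.00753) and with Cyba at r = 0.61 (rho = 0.59, permutation p = 0.00136, adjusted p = 0.00816). Without the 2 mice farthest on the first measure, r was 0.65 and 0.64. Of 8296 genes 1.99% followed Rac2 as closely as Prkcd did, and 2.15% as closely as Cyba did. Cyba with Prkcd gave r = 0.33 (adjusted p = 0.233), and Ncf4 stayed apart, with r = 0.03 to Rac2 and 0.11 to Cyba.

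In spleen of experiment I mice 21 to 45 (n = 15) Cyba and Rac2 gave r = 0.85 (rho = 0.70), but r was 0.49 without the 2 farthest mice. Ncf4 and Rac2 gave r = -0.62 there (rho = -0.42) and -0.32 without 2 mice, so both relations rest on few animals. Among mice 9 to 19 (n = 9) no pair passed an exact permutation test, with Cyba and Rac2 at r = -0.31. The pattern that Rac2 went with Prkcd in experiment II was not seen in mice 21 to 45, at r = -0.51.

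Blood gave a different picture. High correlations were common in experiment I. The 6 pairs among Ncf4, Cyba, Rac2 and Prkcd gave r from 0.71 to 0.90 in mice 21 to 45 (n = 15). In mice 9 to 19 (n = 9) r ran from 0.79 to 0.95. All 6 pairs passed the exact permutation test there, the weakest, Ncf4 and Prkcd, at adjusted p = 0.0498. That value lies at the limit and depends on the p-values not given for mice 21 to 45. Depending on the pair, from 0.603% to 14.7% of 8296 genes followed a member as closely as its partner did in mice 21 to 45, and from 1.10% to 14.6% in mice 9 to 19. Without the 2 farthest mice r ran from 0.37 to 0.83 and from 0.77 to 0.94. Ncf1 went with Ncf4, Cyba and Rac2 in mice 21 to 45, at r = 0.64, 0.65 and 0.66. In those mice the pair of Cyba and Prkcd gave r = 0.90 (rho = 0.92). In experiment II (n = 24) none of those 6 pairs passed, with Ncf4 and Cyba highest at r = 0.45 (adjusted p = 0.0837) and Cyba and Rac2 at r = 0.12. Among the 5 readable members Ncf1 and Rac2 were the 1 pair that passed there, at r = 0.69 (rho = 0.61, permutation p = 0.0003, adjusted p = 0.0036). Without 2 mice r was 0.64. The unreadable Cybb probe also went with Ncf1 there, at r = 0.57 (permutation p = 0.00396, adjusted p = 0.0297 over 30 pairs). A high r with Ncf1 was thus seen also for a probe at background. Of all genes 0.157% followed Rac2 there as closely as Ncf1 did. No relation was found between a member's level in spleen and in blood of the same mouse: over 10 relations, 5 genes in each experiment, r ran from -0.33 to 0.07 and none passed (adjusted p = 0.985 for each).

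**Figure D4:**
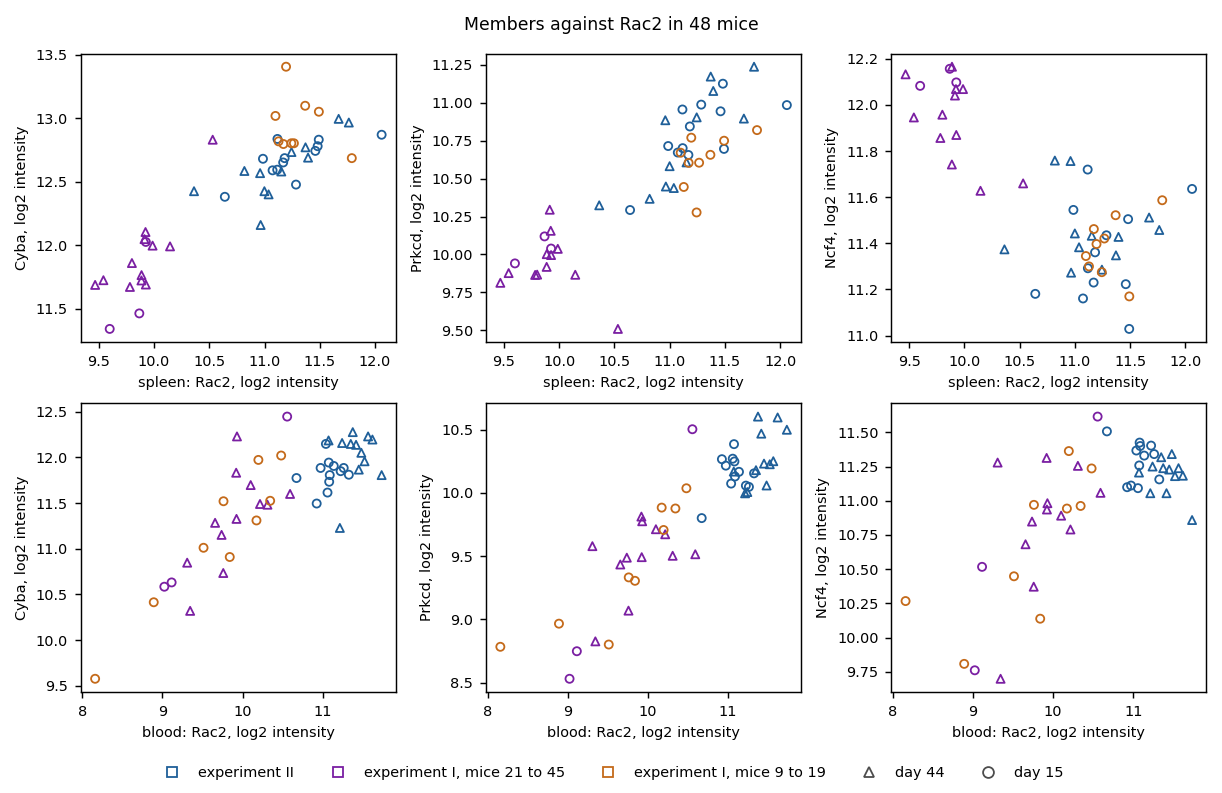
The log2 intensities of Cyba, Prkcd and Ncf4 are plotted against that of Rac2, spleen above and blood below, 1 point per mouse. In spleen the mice 21 to 45 of experiment I form a cluster of low Rac2, and in blood the experiment I mice stretch along a line that the experiment II mice do not follow.

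Within experiment II spleens, Prkcd and Rac2 went with the mean of the B cell markers. Of 40 relations of members with marker lists, Prkcd with B cells gave r = 0.78 (rho = 0.74, permutation p = 3e-05, adjusted p = 0.0012, n = 24) and Rac2 with B cells r = 0.66 (rho = 0.62, permutation p = 0.00052, adjusted p = 0.00693), with 0.66 and 0.55 without 2 mice. Prkcd with mature neutrophils gave r = -0.66 (rho = -0.51, adjusted p = 0.00693) and -0.47 without 2 mice. These 3 were the relations that passed, and Cyba with B cells gave r = 0.22 (adjusted p = 0.499). B cells use both Prkcd and Rac2, the first as a brake on their survival and the second in antigen receptor signalling.

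The genes most alike to each member were ranked by Pearson's r over 48 mice among 8296 genes after genotype, day and experiment had been removed. That ranking includes the clusters of experiment I spleens. The r given here is from within experiment II (n = 24), as a description, and the named genes need not be the closest there. In spleen the genes named for Rac2 were Ly6e (r = 0.83), Ppp1ca (0.83) and Sh3bgrl3 (0.74), and for Cyba Akr1a1 (0.63), Cdk2ap2 (0.53) and Ppp1ca (0.52). Prkcd was followed by Klf2 (0.86), Zap70 (0.62) and Ctsw (0.73), of which Klf2 is a lymphocyte quiescence factor and Zap70 a T cell receptor kinase. Ncf4 was followed by Chrnb1 (0.85), Dab2ip (0.74) and Lman2l (0.83), and Ncf1 by the immunoproteasome subunit Psmb9 (0.71), Tmem71 (0.61) and Tmod3 (0.72). In blood the named genes were Emp3 (0.86), Ostf1 (0.81) and Gnb1 (0.73) for Cyba, and Samhd1 (0.68), Sprr2a1 (0.72) and Ly6e (0.27) for Ncf1. Those of Rac2 were Ptpn6 (0.43), Plp2 (0.45) and Tmc6 (0.62), and those of Prkcd Nrros (0.66), Selplg (0.31) and Pik3cd (0.48). Those of Ncf4 were Vav1 (0.42), Klhl6 (0.40) and Elmo1 (0.41). In experiment II blood the 95th percentile of r over all genes was 0.44 for Ncf4 and for Rac2, 0.40 for Prkcd and 0.52 for Ncf1. Vav1, Klhl6, Elmo1, Ptpn6, Selplg and Ly6e lay below the percentile of their member, so they did not stand out there. Nrros encodes a protein that in mouse phagocytes limits the oxidase by marking Cybb for degradation.

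The rest of the oxidase pathway was read from a list of 76 genes, of which 58 were measured. In mutated spleens 8 of 58 rose and 5 fell, with a median of -0.01, against -0.004 over all probes and 8.88% called. With 1 probe per gene, as in the list, 10.5% were called, and among probes above the median 19.9%. Among 8 measured paralogues and cofactors 1 fell, Hvcn1, the proton channel that balances the charge the oxidase moves (-0.58 ± 0.09, adjusted p = 1.73e-05). Among 11 kinases 1 fell, Prkcb, the protein kinase C beta that also phosphorylates Ncf1 (-0.42 ± 0.07, adjusted p = 6.85e-05). Among 11 genes of the GTPase switch Cdc42 fell by 0.22 ± 0.06 and the Rac exchange factor Tiam1 rose by 0.16 ± 0.05, while Rac1, the widely used relative of Rac2, was at -0.08 ± 0.08 (adjusted p = 0.688).

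The other roles held these calls, against 1269 probes higher and 1013 lower over the array. Of 10 receptors and adaptors 2 rose, the formyl peptide receptor Fpr2 (0.94 ± 0.12) and the IgG receptor Fcgr4 (0.57 ± 0.10). Of 4 genes of NADPH supply the transketolase Tkt rose (0.31 ± 0.07). Of 7 users and scavengers of oxidants 3 rose, Mpo, which turns hydrogen peroxide into hypochlorous acid (1.79 ± 0.19), Prdx2 (0.53 ± 0.11) and Gpx1 (0.29 ± 0.07), in spleens where erythroid markers rose too. Of 7 transcription factors Cebpe, which drives granulocyte maturation, rose (1.33 ± 0.15), while Irf4 and Elf1 fell by 0.37 ± 0.07 and 0.21 ± 0.06. Mpo and Cebpe are also in the neutrophil precursor list, 10 of 10 of whose genes rose, and Fpr2 in the mature neutrophil list.

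In blood 0.922% of all probes were called for genotype, 1.13% with 1 probe per gene and 2.52% among probes above the median. In mutated blood 5 of the 58 rose and 0 fell, with a median of 0.02. They were the IgG receptors Fcgr1 (0.62 ± 0.08), Fcgr3 (0.52 ± 0.14) and Fcgr4 (1.08 ± 0.16), Fpr2 (1.15 ± 0.17) and Fgr, a Src family kinase of myeloid cells (0.56 ± 0.13). Mature neutrophil markers rose in 5 of 11 cases and monocyte markers in 2 of 16 in the same blood, and their part in these values was not tested. Fpr2 is itself in the mature neutrophil list and Fcgr1 in the monocyte list, so both are counted in these numbers too. Mature neutrophil means ran from 8.55 to 10.15 in mutated and from 7.86 to 9.83 in wild type blood. For day in spleen 8 of the 58 rose and 16 fell, against 2349 and 2570 of 25697 probes (19.1% called). With 1 probe per gene, as in the list, 22.9% were called, and among probes above the median 41.4%. The genes that fell included Hvcn1 and Cybc1, a chaperone of the Cybb and Cyba dimer (-0.47 ± 0.09 and -0.41 ± 0.10). None of the day calls in the list was left with a term for mice 9 to 19. In blood 0 of 58 passed for day, with 2244 of 25697 probes at an unadjusted p under 0.05.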

How the data were processed

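In the deposited table the values are linear probe intensity, although the design had assumed log2, and they were turned into log2 before any other step. The values of all arrays of a tissue share nearly 1 distribution, so the authors had quantile normalised them within a tissue. Limma is the tool that the submitters' processing notes name, without a version, and background correction is not given in the sources used here. Of 25697 probes 23978 carried 1 gene symbol, 0 several and 1719 none, and 23962 matched the RefSeq gene table by Entrez identifier.

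Spleen and blood were each fitted over all probes in R 4.3.3 by limma 3.58.1, using lmFit and eBayes on 4 groups (2 genotypes at 2 days) plus a term for the experiment. A call is an adjusted p (Benjamini-Hochberg, all probes) under 0.05. Both tissues of a mouse were joined through its experiment and number. The replicate is the mouse, and the number of arrays limits the precision. Relations used permutation tests with 100000 resamples (scipy 1.17.1, numpy 2.4.6), exact where n = 9, two-sided. Other software was data.table (version 1.17.8), statmod 1.5.0, pandas 2.3.3, matplotlib 3.10.9 and Python 3.11.15. The steps were tested on simulated data.

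The members and lists were chosen with earlier results of these data known. Named were all member probes, the 3 genes most alike to each member and, in each pathway role, at most 4 called genes taken by adjusted p. Alternatives were 1 probe per gene, probes above the median, quantile normalisation again, median centring, normexp with an offset of 50, no experiment term, either experiment alone, trend and robust, array weights, removal of arrays whose pancreas markers lay more than 1 log2 unit above the median array, marker means as terms, percentile ranks and a mouse block. Chosen after seeing the data were the settings for mice 9 to 19, the day by experiment test, the relations within sets and with marker lists, and the GC box.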

Additional observations from a re-analysis of the deposited data

Results flagged for a closer look

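The genotype difference of Ncf1 differed between the tissues by the test of that difference itself: mutated minus wild type was -0.86 ± 0.06 in spleen and -0.55 ± 0.07 in blood, and spleen minus blood was -0.313 ± 0.09 (limma adjusted p = 0.0386, 24 mice per genotype). It was -0.12 in experiment II alone and -0.50 in experiment I alone, and neither passed. In experiment I blood 1 of 12 mutated and 7 of 12 wild type arrays exceeded the receptor background. Groups held more than 10 mice, so no single mouse was tested as an outlier.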

How the results depend on the processing

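Under the alternatives 153 counts of called members or pairs stayed within 1.5 times of those reported and 30 did not. Counts of 0 on both sides are among the 153. Repeated quantile normalisation and median centring called as many probes as the fit reported, 2282 in spleen over both days. Their agreement therefore says little. In spleen the genotype count over both days was 2, and it was 1 without an experiment term, 1 in experiment I alone, 4 in experiment II alone and 1 with marker means as terms; at day 44 it was 2, and 1 without an experiment term, in experiment I alone, with marker terms and with the mouse as a random replicate block. The spleen count for day was 4, and it was 1 without an experiment term, 0 in experiment II alone, 1 without arrays with pancreatic transcripts, and 0 with marker terms, with a term for mice 9 to 19 and without those mice. In blood the genotype count over both days was 1, against 0 in experiment I alone and 2 in experiment II alone; at day 15 it was 1, against 0 without an experiment term, in experiment I alone and without pancreatic arrays; at day 44 it was 1, against 0 without an experiment term and in experiment I alone and 2 in experiment II alone. The blood count for day was 0 and 1 in experiment II alone. The genotype difference between tissues had 1 member and 0 by percentile rank, in either experiment alone and without pancreatic arrays. Of 30 pairs over all mice, those with the unreadable Cybb probe included, 19 passed, against 4 with marker terms, 4 in experiment II alone and 10 in mutated mice alone. With marker terms directions turned in spleen for genotype over both days, to 0.172 for Cyba, 0.106 for Rac2 and 0.066 for Prkcd, at day 44 to 0.175 for Cyba and 0.045 for Prkcd, and for day to -0.005 for Ncf4, 0.179 for Cyba, 0.155 for Rac2 and 0.017 for Prkcd. Cyba also turned for day to 0.04 with a term for mice 9 to 19 and 0.039 without them. In experiment I blood Prkcd was at 0.210 over both days and 0.073 at day 44. Spleen minus blood turned to -0.127 for Ncf1 in experiment II alone, to -0.942 by percentile rank (in percentile points), -0.207 in experiment II alone and -0.044 without pancreatic arrays for Rac2, and to -0.113 by percentile rank for Prkcd. All probes moved as well: in spleen over both days 5.39% were called without an experiment term, 2.83% in experiment I alone, 6.18% in experiment II alone and 0.0156% with marker terms, against 8.88% in the fit reported. The causes were not tested. With the mouse as a replicate block over both tissues (correlation 0.0128), Prkcd at day 44 had adjusted p = 0.0543 and Ncf4 for day adjusted p = 0.0747, and the block changed no other member's call. Signal over background limits Ncf1 in experiment I and Cybb in both.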
